A study of Mus musculus with 2 samples.

Results

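The 10 genes described here are mouse interferon-induced effectors, namely Ifit1, Ifit2, Ifit3, Ifit3b, Isg15, Rsad2, Usp18, Apol9a, Apol9b and Bst2. They were chosen by symbol, with their values in these libraries already known, and all 10 were found among the 24091 genes of the expression table. The values came from cells labelled as primary adipocytes of C57BL/6 mice, sequenced as polyA RNA in 1 sham library and 1 irradiated library. Irradiated mice had received pelvic radiation labelled as 7.5 Gy for 5 days, which does not say whether the dose was given per day or in total, and both titles also name PBS. Gonadal fat was taken 2 months after radiation, collagenase released the cells, and the floating fraction was cultured for 3 days before RNA extraction. The sources used here do not give the age and sex of the mice, the number behind each library or the role of the PBS. With 1 library per condition, no difference has a replicate check, and each value below compares these libraries and not the treatments.

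Type I and type II interferons signal through paired receptors and JAK kinases to STAT transcription factors, which enter the nucleus and switch on a shared set of genes. Type I interferon acts mainly through a complex with STAT2 and IRF9 that binds the interferon-stimulated response element (ISRE), whereas interferon-gamma acts mainly at the gamma-activated site (GAS). The products include RNA-binding IFIT proteins, the ubiquitin-like modifier ISG15, enzymes such as viperin, and proteins that hold back virus release. Many cells, stromal cells and macrophages of fat included, can express them.

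The sham library held 30590000 fragments and the irradiated library 35000000, as recovered from the deposited values. Fragments per kilobase of gene and per library size (FPKM) were obtained from deposited values on the log2(FPKM + 0.1) scale, and differences are irradiated minus sham on that scale, which understates changes of low genes. The filter on low values, an FPKM of 1 or more in either library, left 11253 genes with a median difference of 0.02. The markers of the labelled cell type were unevenly present. The lipid-handling genes Fabp4 (FPKM 96.9 in both libraries), Lpl (68.02 in the sham and 66.6 in the irradiated library) and Cd36 (117.7 and 160.8) were abundant. Adipoq, the adipocyte hormone, had 5 fragments in the sham and 10 in the irradiated library, and the lipid droplet gene Plin1 had 26 and 56, while Col1a1, a fibrillar collagen of fibroblasts, stood at an FPKM of 1937 and 1428. In bulk RNA, fewer cells of a type and less RNA per cell cannot be told apart. Intervals are 95% and cover counting error only. They treat fragments as independent, which PCR copies are not, so they may be too narrow even for that.

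Of the 10 members, 6 were higher in the irradiated library by at least 1 on the log2 scale, namely Ifit1, Ifit3, Ifit3b, Rsad2, Apol9a and Apol9b. Over all genes tested the same held for 0.791%, but the members were picked with this contrast in view, so nothing is read from the gap between those shares. Any positive difference was seen in 9 of the 10, against 53.5% of all genes tested. No member was lower by 1, against 0.373% of all genes tested. The member just inside the threshold was Apol9b at 1.03 and the one just outside was Usp18 at 0.86. The differences ran from -0.10 for Bst2 to 1.77 for Ifit3, with a median of 1.185. The counting interval of the ratio of fragments per library total lay above 1 for 9 members, whereas 23.8% of all genes tested had such an interval, and for Ifit2 the margin was smaller than the rounding of the deposited values. All 10 members passed the filter on low values, Ifit3b only through the irradiated library, where it is high.

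**Figure D1:**
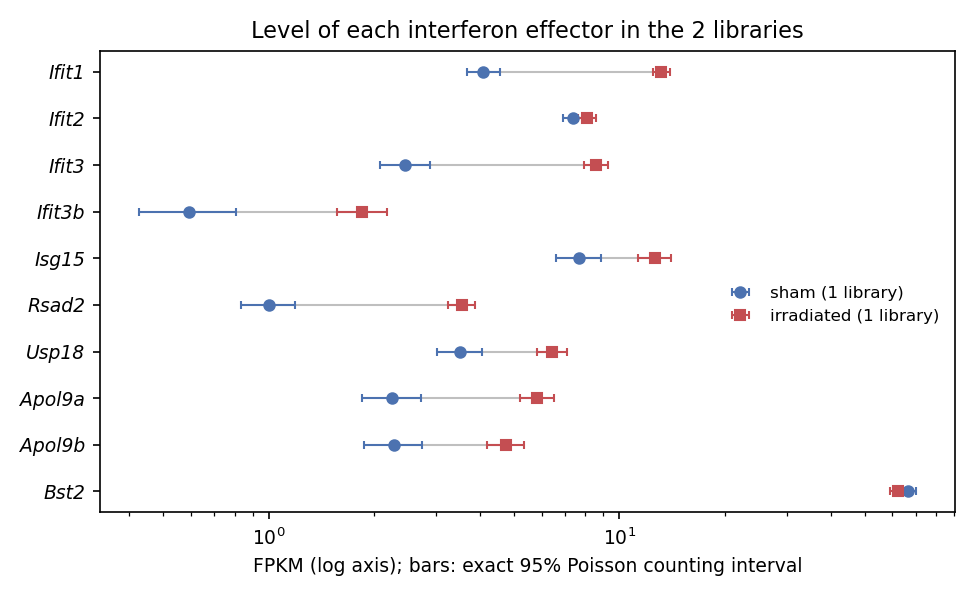
FPKM of each member in the sham library (blue circles) and the irradiated library (red squares) on a log axis, with exact 95% Poisson counting intervals as bars. Pairs lie farthest apart for Ifit3, Rsad2 and Ifit1, and the intervals overlap for Ifit2 and Bst2, which lies far to the right at an FPKM of 66.6 and 62.1.

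The IFIT genes encode interferon-induced proteins with tetratricopeptide repeats. IFIT1 binds the capped or triphosphate ends of foreign RNA and blocks its translation, and IFIT2 and IFIT3 associate with it. The 4 IFIT members lie in a row on the plus strand of chromosome 19 (build mm10). Ifit1 (chr19:34640889-34650009) stood at an FPKM of 4.10 (3.67 to 4.57, 331 fragments) in the sham library and 13.2 (12.4 to 13.9, 1215 fragments) in the irradiated library. Its difference was 1.66, and its fragments per library total were 3.21 times as many (2.84 to 3.63). Ifit3 (chr19:34583529-34588982) stood at an FPKM of 2.45 (2.08 to 2.88, 150 fragments) in the sham and 8.59 (7.92 to 9.30, 600 fragments) in the irradiated library, a difference of 1.77 and a ratio of 3.50 (2.92 to 4.21). Ifit3 ranked 18th, Rsad2 20th and Ifit1 23rd by difference among all genes tested. The members were picked with these differences known, so the ranks are a description only. Ifit3b (chr19:34607933-34613401), a close copy of Ifit3, was the lowest member, with an FPKM of 0.593 (0.427 to 0.806, 41 fragments) in the sham and 1.85 (1.56 to 2.18, 146 fragments) in the irradiated library. Its difference was 1.49 and its ratio 3.11 (2.19 to 4.52), the widest interval of the 10.

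Ifit2 (chr19:34550694-34576534), whose product binds RNA and has been linked to cell death, differed from its family. It stood at an FPKM of 7.36 (6.89 to 7.87, 889 fragments) in the sham and 8.07 (7.60 to 8.55, 1114 fragments) in the irradiated library, a difference of 0.13. The ratio was 1.10 (1.002 to 1.20), and its lower bound lay above 1 by less than the 0.347% by which rounding can move a deposited value. The interval of Ifit2 did not reach those of Ifit1, Ifit3 or Ifit3b. In the sham library Ifit2 was the highest of the 4 IFIT genes per length, and in the irradiated library Ifit1 was, with Ifit3 and Ifit2 at levels whose intervals overlapped.

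Rsad2 encodes viperin, a radical SAM enzyme that turns CTP into a chain-terminating nucleotide. The gene (chr12:26442743-26456452, minus strand) stood at an FPKM of 1.002 (0.836 to 1.19, 129 fragments) in the sham library and 3.56 (3.26 to 3.87, 524 fragments) in the irradiated library. The difference was 1.73 and the ratio 3.55 (2.92 to 4.34), the highest ratio of the 10, with an interval that overlapped those of Ifit3, Ifit1, Ifit3b and Apol9a. Cmpk2, a mitochondrial nucleotide kinase that lies 12.8 kb to the right of Rsad2, stood at 0.329 (32 fragments) in the sham and 1.20 (134 fragments) in the irradiated library, 1.60 apart on the log2 scale. The gene on the other side, Rnf144a, a ubiquitin ligase gene 27.5 kb away, differed by -0.59, so the nearest genes of Rsad2 did not share a direction.

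Apol9a and Apol9b belong to the mouse apolipoprotein L family, intracellular lipid-binding proteins, and are close copies of each other on chromosome 15. Apol9a (chr15:77403789-77411080, minus strand) went from an FPKM of 2.25 (1.84 to 2.72, 108 fragments) to 5.84 (5.22 to 6.52, 321 fragments). The difference was 1.34 and the ratio 2.60 (2.08 to 3.26). Apol9b (chr15:77729072-77736382, plus strand) went from 2.28 (1.88 to 2.74, 111 fragments) to 4.76 (4.20 to 5.36, 265 fragments), a difference of 1.03 and a ratio of 2.09 (1.67 to 2.63). In the sham library the copies stood at overlapping levels, and in the irradiated library Apol9a was the higher of them with overlapping intervals.

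ISG15 is a small ubiquitin-like protein that is attached to other proteins or secreted, and USP18 is the protease that removes it and also holds back signalling at the type I interferon receptor. Isg15 (chr4:156199424-156200818, minus strand) stood at an FPKM of 7.68 (6.59 to 8.89, 177 fragments) in the sham library and 12.6 (11.3 to 14.0, 333 fragments) in the irradiated library. Its difference was 0.71 and its ratio 1.64 (1.37 to 1.98). Usp18 (chr6:121245906-121270917, plus strand) went from 3.51 (3.03 to 4.05, 189 fragments) to 6.44 (5.83 to 7.11, 397 fragments), with a difference of 0.86 and a ratio of 1.84 (1.54 to 2.19). The modifier and its protease therefore differed by similar amounts, both under the threshold of 1, and their intervals overlapped each other.

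Bst2 encodes tetherin, a membrane protein that holds budding viruses at the cell surface and in mice also marks plasmacytoid dendritic cells. The gene (chr8:71534262-71537437, minus strand) was the most abundant member in both libraries, with an FPKM of 66.6 (63.4 to 70.03, 1551 fragments) in the sham and 62.1 (59.2 to 65.2, 1655 fragments) in the irradiated library. Its difference of -0.10 was the sole negative value among the 10, and its ratio was 0.933 (0.870 to 1.0001). The upper bound lay within the rounding of the deposited values, so Bst2 gave no call in either direction. Siglech, another marker of plasmacytoid dendritic cells, had 0 fragments in the sham and 1 in the irradiated library.

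Per length, Bst2 made up 68.1% of the summed FPKM of the 10 members in the sham library and 48.9% in the irradiated library. The summed FPKM of the 10 was 97.8 and 127.05, and without Bst2 it was 31.2 and 64.9. In the sham library the order of levels was Bst2, then Isg15 with Ifit2, then Ifit1 with Usp18, then Ifit3 with Apol9b and Apol9a, then Rsad2, and last Ifit3b, where members joined by "with" had neighbours with overlapping counting intervals. In the irradiated library the order was Bst2, then Ifit1 with Isg15, then Ifit3 with Ifit2, then Usp18 with Apol9a and Apol9b, then Rsad2 and Ifit3b. Ifit1 and Ifit3 moved past Ifit2 between these orders, and Rsad2 and Ifit3b stayed at the low end of both. The 3 members with the highest sham FPKM, Bst2, Isg15 and Ifit2, had the 3 smallest differences. The sham value enters both quantities, so this is a description.

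**Figure D2:**
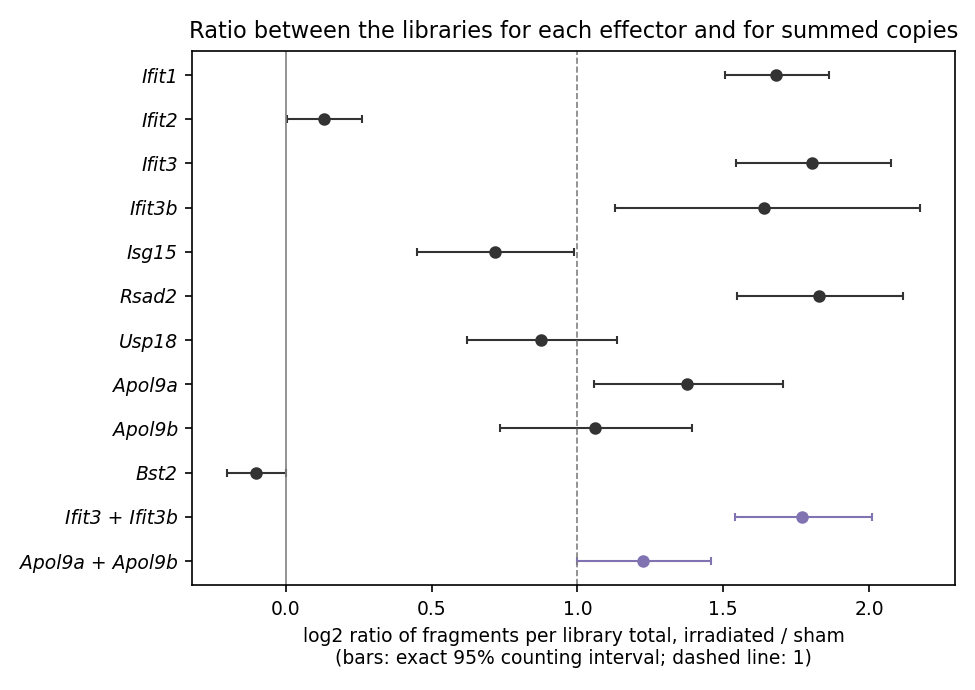
Log2 ratio of fragments per library total, irradiated over sham, for each member (black) and for the summed copies (purple), with exact 95% counting intervals as bars. The summed Ifit3 pair lies at 1.77 and the summed Apol9 pair at 1.23, while Bst2 and Ifit2 lie close to 0.

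Ifit3 with Ifit3b and Apol9a with Apol9b are near-identical copies, so fragments could be split between them. Over the coding sequence, Ifit3 and Ifit3b shared 1198 of 1209 bases (99.1%) and Apol9a and Apol9b 916 of 930 (98.5%), whereas Ifit1 and Ifit2 were 60.1% identical. The stretches of 60 coding bases in which each pair differed most are printed 5′ to 3′, from GENCODE M21 on GRCm38, with the differing bases in capitals (exon 2 of the Ifit3 pair and exon 3 of the Apol9 pair), because fragments can be told apart only at such bases.
Ifit3 coding, chr19:34587284-34587343, plus strand: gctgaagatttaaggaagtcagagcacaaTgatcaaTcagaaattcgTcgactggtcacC
Ifit3b coding, chr19:34611654-34611713, plus strand: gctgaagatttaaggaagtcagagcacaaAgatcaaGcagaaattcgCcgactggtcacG
Apol9a coding, chr15:77404613-77404672, minus strand: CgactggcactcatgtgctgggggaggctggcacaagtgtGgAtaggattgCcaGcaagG
Apol9b coding, chr15:77735499-77735558, plus strand: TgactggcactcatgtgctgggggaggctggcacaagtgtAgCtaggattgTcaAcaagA

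Of all windows of 100 bases in the GENCODE transcripts, 31.7% of those of Ifit3, 27.4% of those of Ifit3b, 41.1% of those of Apol9a and 34.9% of those of Apol9b also occurred in another gene. The figure was 3.29% for Ifit1, whose shared bases lie in Ifit1bl2, and 0 for Ifit2, Isg15, Rsad2, Usp18 and Bst2. With windows of 50 bases the shares were 51.2% for Ifit3, 45.0% for Ifit3b, 57.5% for Apol9a, 51.4% for Apol9b, 7.13% for Ifit1 and 3.96% for Isg15. With 150 bases they were 18.5% for Ifit3, 16.0% for Ifit3b, 28.1% for Apol9a, 23.7% for Apol9b and 1.24% for Ifit1. The sources used here give neither the read length nor how shared fragments were counted, so the single values of the 4 copies are uncertain. The sums do not depend on a split within a pair. Ifit3 and Ifit3b together held 191 fragments in the sham and 746 in the irradiated library, a ratio of 3.41 (2.91 to 4.02). Apol9a and Apol9b together held 219 and 586, a ratio of 2.34 (2.00 to 2.74). The counting intervals of both summed pairs thus lay above 1. Ifit3 took 78.5% of the fragments of its pair in the sham (exact Clopper-Pearson interval 72.03 to 84.1) and 80.4% in the irradiated library (77.4 to 83.2). Apol9a took 49.3% (42.5 to 56.1) and 54.8% (50.6 to 58.9), so the intervals of the split overlapped between the libraries in either pair.

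Promoter letters were examined because the members are known as interferon targets. RefSeq windows from 250 bases before to 50 bases after the start (GRCm38.p6) were held for 9 of the 10 members, and Usp18 had none. The ISRE was searched as GAAA, any 2 bases and GAAA again on either strand, so that it reads TTTC, any 2 bases and TTTC on the other, and matches may overlap. The GAS was searched as TTCNNNGAA, which reads the same on both strands. An ISRE match stood in 8 of the 9 members, against 3.44% of all 32851 windows and 3.75% of the tested genes with a window. For 7 members there were at least 2 matches, against 0.225% of all windows and 0.332% of the tested genes with a window. The stretches are printed 5′ to 3′ on the strand of the gene, with ISRE matches in capitals, for the members with the larger differences first and then for Isg15, Ifit2 and Bst2.
Ifit1 promoter, chr19:34640744-34640858, plus strand: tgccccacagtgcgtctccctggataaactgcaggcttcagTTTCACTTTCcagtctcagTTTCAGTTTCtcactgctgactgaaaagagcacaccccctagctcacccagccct
Ifit3 promoter, chr19:34583328-34583461, plus strand: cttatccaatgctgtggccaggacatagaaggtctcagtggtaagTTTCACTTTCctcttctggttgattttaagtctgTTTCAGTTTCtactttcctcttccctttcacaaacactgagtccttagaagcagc
Ifit3b promoter, chr19:34607724-34607857, plus strand: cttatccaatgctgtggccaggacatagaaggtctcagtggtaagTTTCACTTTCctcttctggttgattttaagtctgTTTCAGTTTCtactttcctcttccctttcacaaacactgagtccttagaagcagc
Rsad2 promoter, chr12:26456518-26456617, minus strand: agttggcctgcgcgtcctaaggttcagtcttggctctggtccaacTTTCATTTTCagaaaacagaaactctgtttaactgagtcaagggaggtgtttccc
Apol9a promoter, chr15:77411117-77411146, minus strand: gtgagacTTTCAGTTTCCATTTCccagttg
Apol9b promoter, chr15:77729028-77729057, plus strand: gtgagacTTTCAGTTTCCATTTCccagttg
Isg15 promoter, chr4:156200830-156200941, minus strand: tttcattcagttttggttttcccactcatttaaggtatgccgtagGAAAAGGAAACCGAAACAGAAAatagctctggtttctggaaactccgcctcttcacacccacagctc
Ifit2 promoter, chr19:34550594-34550693, plus strand: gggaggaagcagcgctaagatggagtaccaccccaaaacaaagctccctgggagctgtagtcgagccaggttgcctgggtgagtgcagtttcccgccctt
Bst2 promoter, chr8:71537542-71537647, minus strand: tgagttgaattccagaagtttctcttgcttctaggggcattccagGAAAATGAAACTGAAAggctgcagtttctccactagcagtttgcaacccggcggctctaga

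Ifit1 held its pair of matches at 104 to 95 and 85 to 76 bases before the start. Ifit3 and Ifit3b carried the same printed stretch, and their windows shared 258 of 260 aligned bases (99.2%), but the matches lay at 156 to 147 and 122 to 113 bases before the start in Ifit3 and 188 to 179 and 154 to 145 in Ifit3b, since RefSeq places the starts differently. Rsad2 held 1 match at 120 to 111 bases before the start. Apol9a and Apol9b shared all 281 aligned bases of their windows, with 2 overlapping matches that began 59 and 37 bases before the respective starts. GENCODE places exon 1 of Apol9a at chr15:77411026-77411135, which takes in the second match and part of the first. The matches of Apol9a thus lie before the RefSeq start but not wholly before that of GENCODE. Those of Apol9b lie before exon 1 of the GENCODE transcript used, which begins at chr15:77729094. Another annotated GENCODE exon overlaps them at least in part. Isg15 had 3 overlapping matches between 78 and 57 bases before the start, and Bst2 had 2 overlapping matches between 130 and 115, the first of them overlapped by a GAS match at 136 to 128. The motif thus stood in members at both ends of the range of differences, Ifit3 at 1.77 and Bst2 at -0.10. Neither window of Ifit2 held an ISRE match and 1 GAS match was found, against 8.3% of all windows with a GAS match, which says only that the searched ISRE letters are not in those windows. GENCODE places the large last exon of Ifit2 at chr19:34573067-34576419, far from the start that the windows cover. A match is a run of letters and was not tested as a binding site.

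**Figure D3:**
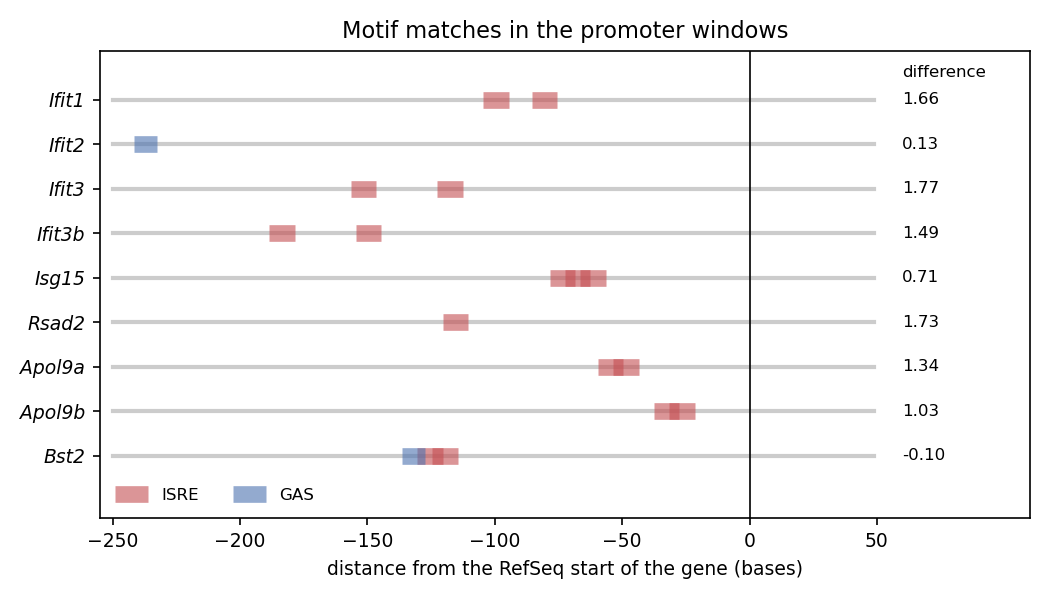
Positions of ISRE matches (red) and GAS matches (blue) in the RefSeq promoter window of each of 9 members, in bases from the start (vertical line), with the difference on the log2(FPKM + 0.1) scale at the right. Bst2 at -0.10 holds 2 ISRE matches like Ifit1 at 1.66, and Ifit2 at 0.13 holds none.

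The other genes around the members gave no common direction. The IFIT row is bounded by Lipa, the lysosomal acid lipase gene 23.2 kb to the left of Ifit2, with a difference of 0.42, and by Slc16a12, a transporter gene 18.4 kb to the right of Ifit1, with 0.09. On the minus strand, Ifit1bl2 lies within the row, while the listed span of Ifit1bl1 covers Ifit3b and Ifit1 and runs past the end of Ifit1. Ifit1bl1 and Ifit1bl2 held 8 and 14 fragments in the sham and 24 and 14 in the irradiated library. Agrn and AW011738 on the sides of Isg15 differed by 0.23 and -0.22, and Plvap and Mvb12a on the sides of Bst2 differed by -0.08 and 0.08. None of the 13 paralogs of the IFIT and apolipoprotein L families that were listed reached an FPKM of 1, with 138 fragments in all in the sham and 239 in the irradiated library. Apol10b was the sole paralog with a difference of at least 1, at 1.17 from 13 and 42 fragments, and Apol6 and Apol7c, which with Apol10b had the highest mean FPKM of the 13, differed by 0.28 and 0.32.

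None of the tested receptor, signalling and feedback inhibitor genes that were listed differed by as much as 1. Over all genes tested, 0.791% were higher and 0.373% lower by that much, so few were to be counted in lists this short. Irf7, a transcription factor gene counted with the other interferon-induced genes, went from an FPKM of 22.2 to 32.6 (0.55). Of 21 interferon genes, 19 had 0 fragments in both libraries, and Ifnb1 and Ifnz had 0 in the sham and 1 each in the irradiated library. For Ifnb1, 3 fragments, taken as the limit that a count of 0 allows, correspond to an FPKM of 0.128 in the sham library, so ligand transcripts were at or under what this depth can show. Of the 12 receptor and signalling genes, 11 were tested, and their median difference was 0.10, against 0.02 for all genes. Stat2, a subunit of the ISRE-binding complex, went from an FPKM of 5.18 to 7.16 (difference 0.46) and Irf9 from 7.84 to 9.28 (0.24), while the kinase gene Jak2 went from 78.1 to 54.1 (-0.53). Jak1 stood at 116.06 and 108.3 (-0.10) and the interferon-gamma receptor gene Ifngr2 at 32.6 and 36.4 (0.16). Counting intervals lay above 0 for 5 and below 0 for 4 of the 11, against 23.8% and 17.5% of all genes tested. The type I receptor genes Ifnar1 and Ifnar2 were among those below, at -0.16 and -0.22. Of 5 feedback inhibitors, none had an interval above 0, and Socs1 (2.71 to 1.82, -0.55), Socs3 (21.8 to 18.4, -0.24) and Ptpn2 (4.79 to 4.34, -0.14) had intervals below 0, against the same 17.5% of all genes. Usp18, the inhibitor among the members, differed by 0.86.

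The ISG15 conjugation genes went in both directions. Ube2l6, the ISG15-conjugating enzyme, differed by -0.38 (FPKM 31.5 in the sham and 24.2 in the irradiated library), and Herc6, the mouse ISG15 ligase, by 0.41 (1.65 and 2.23), with a counting interval that overlapped that of Isg15. The other 2 tested genes of the list, Trim25 and Arih1, differed by 0.23 and 0.16, and Uba7, the activating enzyme, stayed under the filter at 0.846 and 0.987. Among 58 other interferon-induced genes, 50 were tested and 40 were higher in the irradiated library, against 53.5% of all genes tested. Of the 50, 3 were higher by at least 1, against 0.791% of all genes tested, and the median difference was 0.205. Counting intervals lay above 0 for 30 and below 0 for 5 of the 50, against 23.8% and 17.5% of all genes tested. This list and those of the receptor, signalling, feedback and conjugation genes were written with earlier results of these data known. Nothing is therefore read from the gaps between the shares. The 3 past the threshold were the chemokine gene Cxcl10 (2.59 to 9.89, difference 1.89), Cmpk2 and Oasl1 (1.70 to 3.79, difference 1.11), of which Cmpk2 passed the filter only through the irradiated library. Under the filter, the antiviral GTPase gene Mx1 had 11 and 61 fragments and Oas2 33 and 95.

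**Figure D4:**
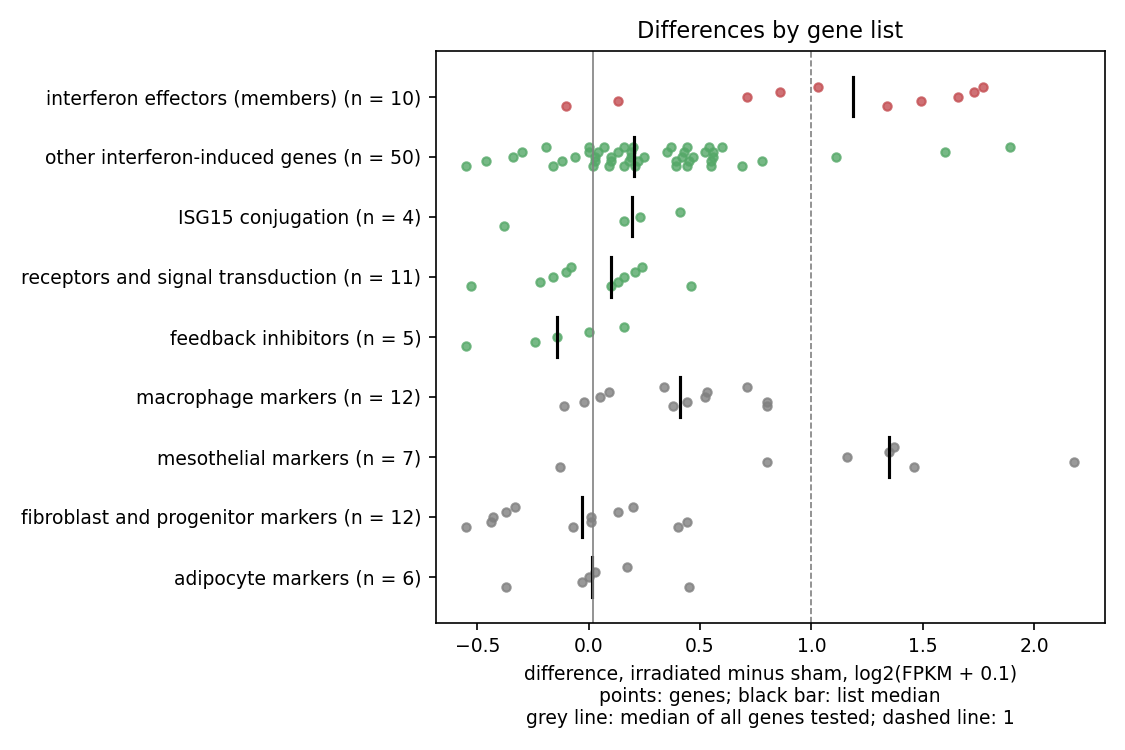
Differences of single genes (points) and list medians (black bars) for the members, for the other lists of the interferon pathway and for cell type markers, on the log2(FPKM + 0.1) scale. The median was 1.185 for the members, 0.205 for other interferon-induced genes, 0.41 for macrophage markers and 1.35 for mesothelial markers, against 0.02 for all genes (grey line).

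Markers of other cells also differed between the libraries. The marker lists, too, were written with earlier results of these data known, so nothing is read from the gaps to the shares of all genes. Of 13 macrophage markers, none at 0 in either library, 12 were tested. Of these, 10 were higher in the irradiated library, against 53.5% of all genes tested, and none by 1, against 0.791%. Counting intervals lay above 0 for 9 of the 12, against 23.8% of all genes tested. The median was 0.41, with a summed FPKM of 647 in the sham and 696 in the irradiated library. Cd68, a lysosomal protein of macrophages, went from an FPKM of 59.2 to 96.9 and the complement gene C1qa from 12.5 to 21.9, while the defining surface marker gene Adgre1 stood at 15.7 and 15.5. The lysozyme gene Lyz2, which made up most of the sum, stood at 443 and 410.05, a difference of -0.11 and the sole interval below 0 on the list. Of 8 mesothelial markers, 7 were in the table and tested, none at 0, and 5 were higher by at least 1, against 0.791% of all genes tested, with a summed FPKM of 28.8 and 38.1. Of those 5, all but Krt8 passed the filter only through the irradiated library, where they are high. Msln, the mesothelial surface protein gene, had 34 fragments in the sham and 202 in the irradiated library, and Upk3b, Krt19, Krt8 and Krt18 differed by 1.37, 1.46, 1.35 and 1.16, whereas Wt1, also of that list, stood at an FPKM of 20.4 and 18.7. The 8 endothelial markers had a median of 0.165 and a summed FPKM of 44.6 and 48.6, and the 12 fibroblast and progenitor markers a median of -0.03 and a summed FPKM of 4981 and 4161. The 10 lymphocyte markers stayed under the filter, with a summed FPKM of 2.83 and 1.72, and Cd3d (15 and 4 fragments) and Cd79a (29 and 8) were lower by at least 1. The 8 plasmacytoid dendritic cell markers summed to 83.4 and 78.0, most of it Bst2. On that list Irf8 stood at 1.07 and 1.59, a difference of 0.53, and Cox6a2, which passed the filter only through the sham library, differed by -1.07 from 26 and 13 fragments. Of the 16 adipocyte markers 6 were tested, with a median of 0.015, which leaves out the 10 under the filter. Among those 10, Plin1 had 26 and 56 fragments, a ratio of 1.88 (1.16 to 3.12). Plin4 had 32 and 70, a ratio of 1.91 (1.24 to 3.00), while Cidea, at 1 and 0, was lower. The summed FPKM of all 16 was 301.05 and 343.03, and within it Cd36 went from 117.7 to 160.8. The part of these cell types in the values of the 10 effectors was not tested.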

How the data were processed

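PolyA RNA of 1 sham and 1 irradiated library was sequenced after a stranded Illumina preparation, per the labels. The authors deposited log2 values of FPKM + 0.1 per gene with 2 decimals, with gene positions and lengths. The build is mm10 per the submitters' processing notes, while for the aligner and the counter the versions and names were not given in the sources used here. FPKM was obtained as 2 to the power of the deposited value minus 0.1. Whole fragments were recovered by searching for the library total at which low genes fall within 0.12 of whole numbers, which held for 3588 of 3589 and 3586 of 3586 genes under 20 fragments. At the totals of 30590000 and 35000000 fragments, 3 fragments over a length of 1 kb gave an FPKM of 0.0981 and 0.0857. Genes at or above an FPKM of 1 in either library were tested for a difference of at least 1, meaning counted and not given a p-value. Exact Poisson intervals were given for levels and exact Clopper-Pearson intervals for ratios of fragments, at 95%.

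Members and gene lists were chosen with earlier results of these data known. The text names all 10 members. From each other list the rule took genes differing by at least 1 and, where fewer than 3 did, up to 3 of the highest mean FPKM. It also took the nearest genes on either side of the members, Adipoq, Plin1, Col1a1 and macrophage markers, and some of its genes are given only within their list's counts. Other named genes were picked after their values were seen. They included Stat2, Irf9, Irf7, Herc6, Uba7, Siglech, Irf8, Ifnar1, Ifnar2, Wt1, Ifnb1, Ifnz, Plin4, Cidea and those of the closing observations. Copies were compared by shared windows and by global alignment of GENCODE M21 coding sequences, and motifs in RefSeq promoter windows. The steps were tested on simulated data. Alternatives were another pseudocount, filter, fold and scaling and the summing of copies. The tools were Biopython 1.88, SciPy 1.17.1 and pandas 2.3.3 under Python 3.11.15, with numpy 2.4.6 and matplotlib 3.10.9.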

Additional observations from a re-analysis of the deposited data

How the results depend on the processing

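Of the members, 6 were higher by at least 1 on the log2(FPKM + 0.1) scale. The count was also 6 after centring on the median difference, after scaling without the 100 most abundant genes, with a pseudocount of 0.01 and with no filter. It was 4 with a pseudocount of 1 and 3 of 7 at an FPKM minimum of 5. Those 3, Ifit1, Ifit3 and Apol9a, passed that minimum only through the irradiated library, where they are high. The count was 8 at a fold threshold of 0.5, 0 at a threshold of 2, and 4 of 8 units with the copies summed. Among all genes tested, the 89 higher by at least 1 (0.791%) became 29 (0.258%) with a pseudocount of 1. They became 267 of 24091 (1.11%) with no filter and 23 of 7538 (0.305%) at an FPKM minimum of 5. The count was 485 (4.31%) at a threshold of 0.5 and 11 (0.0978%) at a threshold of 2. With a pseudocount of 1, the differences were 1.47 for Ifit1, 1.48 for Ifit3, 0.84 for Ifit3b and 1.19 for Rsad2. The counting interval lay above 1 for 9 members, and for 8 after either scaling, which lost Ifit2. The other values, 36 of 40 member differences, 4 of summed copies and 24 list medians, moved by less than their intervals or ranges, and no called member changed sign. Little can be read from those counts, since either scaling shifts every value by a constant, -0.02 or -0.0143. For the ISG15 conjugation genes and the feedback inhibitors, the range was that of the list's own genes, -0.38 to 0.41 and -0.55 to 0.16. No paired analysis was possible because only 1 library stood for each condition, and none could be left out. Depth limits Ifit3b most, with 41 fragments in the sham library.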

Other observations

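Among 8746 tested genes with a RefSeq promoter window, 328 held at least 1 ISRE match, and 8 of these were higher in the irradiated library by at least 1. They were Ifit1, Ifit3, Ifit3b, Rsad2, Apol9a, Apol9b, Cxcl10 and Tll1, a metalloprotease gene (257 fragments in the sham and 610 in the irradiated library). The share was 2.44% with a match and 0.558% without, and with the members left out it was 0.625% (2 of 320 genes). Counting intervals lay above 0 for 30% of those 320 genes, against 23.3% of the genes without a match. Any positive difference was seen in 58.1% of the 320, against 53.5% without a match. Of the 29 tested genes with at least 2 matches, 7 were members. None of the other 22 was higher by at least 1, against 0.791% of all genes tested, so few were to be counted at that threshold. Counting intervals lay above 0 for 7 and below 0 for 3 of the 22, against 23.8% and 17.5% of all genes tested. Their differences ran from -0.55 to 0.9 with a median of 0.095. Ifitm3, a membrane protein gene that restricts virus entry and the most abundant of the other interferon-induced genes listed, held such a promoter and differed by -0.16 (FPKM 671 in the sham and 600.4 in the irradiated library). Irgm1, an interferon-induced GTPase gene, also held at least 2 matches and differed by 0.55.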
